A study of Rattus norvegicus with 32 samples.

Results

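Levels of 10 genes of the unfolded protein response were followed in the livers of rats that had breathed ozone, an oxidant gas of polluted air, or filtered air. The genes were Atf6, Xbp1, Hspa5, Hsp90b1, Calr, Dnajc3, Dnajb9, Pdia4, Pdia6 and Herpud1, 10 of the 13438 genes that had a probe set for 1 gene only in the platform annotation. A probe set is the group of short probes whose signals are summarised as 1 value. Each gene is represented by its brightest such probe set, and all 10 were among the 11626 genes kept after a filter on dim probe sets.

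All rats were male Wistar Kyoto (WKY) animals, 10 weeks old and 250 to 300 g in weight, a strain that every group shared. Exposure was to filtered air or to ozone at 1 ppm for 6 h per day. The 6 groups were air and ozone at the end of day 1 (6 arrays each), air and ozone at the end of day 2 (5 arrays each), and air and ozone 18 h after the second exposure had ended (5 arrays each, called 18 h from here on). Total liver RNA was labelled and read on 32 single-colour Affymetrix rat arrays. Whether each array held RNA of a different rat is not in the labels, and p-values here measure the spread between these samples, which may be technical. In RNA of a whole organ, fewer cells of a type and less RNA per cell cannot be told apart.

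The unfolded protein response is the reaction of a cell to unfolded protein in the endoplasmic reticulum (ER), the compartment where secreted and membrane proteins fold. Sensors in the ER membrane, among them ATF6 and the enzyme that splices Xbp1 mRNA, switch on transcription factors that raise the genes of chaperones, folding enzymes and degradation proteins. Hepatocytes secrete most plasma proteins and hold much ER, and in liver Xbp1 is also known for a role in lipid synthesis. The 10 genes cover the pathway by role. ATF6 is a sensor that becomes a transcription factor once it is cleaved, and XBP1 is the transcription factor made from the spliced mRNA. Hspa5 encodes BiP and Hsp90b1 encodes GRP94, the main chaperones of the ER lumen, and Calr encodes calreticulin, a lectin chaperone that binds calcium and glycoproteins. Dnajc3 (P58IPK) and Dnajb9 (ERdj4) are cochaperones of BiP, Pdia4 and Pdia6 are protein disulfide isomerases, and Herpud1 is an ER membrane protein that takes part in the degradation of misfolded protein. Splicing of Xbp1 mRNA was not measured here, since a single probe-set value does not separate the spliced from the unspliced form.

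The regulatory letters in front of these genes are shown because several of them, Hspa5 above all, are textbook examples of control through such elements. The ER stress response element, a site at which ATF6 and XBP1 are known to act, was searched as CCAAT and CCACG with any 9 bases between them, and its shorter form, element II, as ATTGG and CCACG with any 1 base between them. Both were searched on both strands of RefSeq promoter windows of 300 bases (build GRCr8), from 250 bases before the start of a gene to 50 after it. A window was found for 8 of the 10 genes, all but Pdia6 and Atf6. The first element stood in 5 of these 8 windows and in 22 of all 33469 windows (0.0657%). Element II stood in 1 of the 8, that of Herpud1, and in 17 of all windows (0.0508%). The unfolded protein response element, TGACGTGG, stood in 0 of the 8 and in 199 of all windows (0.595%). Read on the other strand it begins with the CCACG of the other elements, so matches could overlap, which none did in these 8 windows. A match describes the letters only and does not show that a factor binds there, and a window with no match says nothing about a factor. The matches read as follows, 5′ to 3′ on the strand of the gene, with positions counted from the start of the gene and the fixed letters in capitals.
Xbp1, -65 to -47: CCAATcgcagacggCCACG
Hspa5, -43 to -25: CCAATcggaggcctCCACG
Dnajc3, -133 to -115: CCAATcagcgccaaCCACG
Hsp90b1, -176 to -158: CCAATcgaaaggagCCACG
Hsp90b1, -72 to -54 (reverse strand): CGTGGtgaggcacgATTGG
Herpud1, -124 to -114: ATTGGgCCACG
Calr, -232 to -214 (reverse strand): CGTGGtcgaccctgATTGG

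Hsp90b1 held a pair of matches on opposite strands, and the match in Calr lay on the strand opposite to the gene. The windows of Dnajb9 and Pdia4 held neither the element nor element II. The matches of Xbp1 and Hspa5 lay nearest to the start, between 65 and 25 bases before it. For the transcription factor Xbp1, the chaperone Hspa5 and the cochaperone Dnajc3, whose values are set against each other below, the 250 bases before the start read as follows, with the element in capitals (RefSeq, GRCr8).
Xbp1 (chr14:84604373-84604622, plus strand): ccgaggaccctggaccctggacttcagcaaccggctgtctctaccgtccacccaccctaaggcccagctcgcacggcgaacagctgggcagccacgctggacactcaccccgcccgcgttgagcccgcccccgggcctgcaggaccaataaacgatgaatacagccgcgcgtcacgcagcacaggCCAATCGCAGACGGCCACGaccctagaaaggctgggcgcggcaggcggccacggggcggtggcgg
Hspa5 (chr3:38452766-38453015, plus strand): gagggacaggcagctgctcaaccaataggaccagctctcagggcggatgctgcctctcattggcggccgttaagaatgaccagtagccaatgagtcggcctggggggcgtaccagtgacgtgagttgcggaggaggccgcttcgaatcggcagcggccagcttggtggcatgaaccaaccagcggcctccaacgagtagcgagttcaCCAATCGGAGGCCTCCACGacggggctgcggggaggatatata
Dnajc3 (chr15:102432417-102432666, plus strand): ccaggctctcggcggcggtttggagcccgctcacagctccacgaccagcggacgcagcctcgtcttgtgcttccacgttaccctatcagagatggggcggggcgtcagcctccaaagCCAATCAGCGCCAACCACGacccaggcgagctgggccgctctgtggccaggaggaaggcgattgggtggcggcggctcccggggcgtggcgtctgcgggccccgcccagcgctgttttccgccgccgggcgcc

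**Figure D1:**
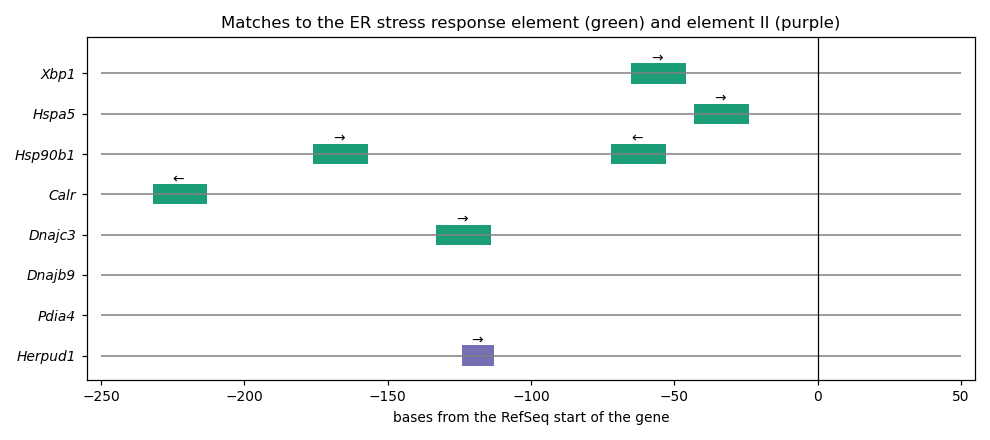
Each line is the promoter window of 1 of the 8 genes with a RefSeq window, drawn from 250 bases before to 50 bases after the start of the gene (x axis, bases from the start). Green boxes are matches to the ER stress response element, the purple box is a match to element II and arrows give the strand. Of the 8 windows, 5 hold the element, Herpud1 holds element II, and Dnajb9 and Pdia4 hold neither.

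The arrays were of similar brightness, with medians of 147 to 161 units. The signal ratio of the 3′ to the 5′ actin control probe set, a check of RNA quality, ran from 2.16 to 3.50. It was highest on 18 h ozone replicate 5, and the next highest was 2.89 on day 2 ozone replicate 1. By their pattern over genes, 7 arrays resembled another group more than their own. Of these, 4 were nearest to a different air group (day 1 air replicate 5, day 2 air replicates 1 and 2, and 18 h air replicate 5). Only 18 h air replicate 5 of these is among the arrays left out below. Day 2 air replicate 1 was kept, though it correlated less with its own group (r = -0.015, and 0.66 with day 1 air, on the measure given next). Low correlation with the own group thus does not separate the arrays left out from those kept. With each gene's mean over the 32 arrays taken off, day 2 air replicate 5 correlated with its own group at r = -0.52 and with day 2 ozone at r = 0.60. Day 2 ozone replicate 5 lay nearest to ozone at 18 h (r = 0.66), 18 h air replicate 1 also lay nearest to ozone at 18 h (r = 0.70), and 18 h air replicate 5 lay nearest to day 1 air (r = 0.61, against 0.10 with its own group). Where a call of the 10 genes changed, and for the main values of day 2 and 18 h, results are given with all arrays and also without replicate 5 of the 3 groups named (3 arrays left out) and without 18 h air replicate 1 as well (4 arrays left out). Both sets were chosen after seeing the data, and leaving out arrays that lie apart widens the gap between groups by itself. The tissue label was checked against 8 hepatocyte markers, of which 7 were on the array. Their summed intensity was 58460 to 66116 units on every array, and the mean of each lay above the nonspecific-binding probes.

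At the end of day 1, 4 of the 10 genes were lower after ozone than after air and none was higher. The transcription factor Xbp1 fell 1.59-fold, the isomerase Pdia4 fell 1.23-fold, and the BiP cochaperones Dnajb9 and Dnajc3 fell 1.24-fold and 1.19-fold. The main chaperones Hspa5, Hsp90b1 and Calr did not pass the test, nor did Pdia6, Herpud1 and Atf6. Ozone moved many genes that day: 29.5% of the genes tested passed, 13.1% higher and 16.4% lower. The median difference was -0.19 over the 10 genes, of which 8 were below 0, against 0.0045 over all genes tested. Differences are on the scale log2(intensity + 16) with their standard error, from limma with Benjamini-Hochberg adjustment over all genes tested and a threshold of 0.05.

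**Figure D2:**
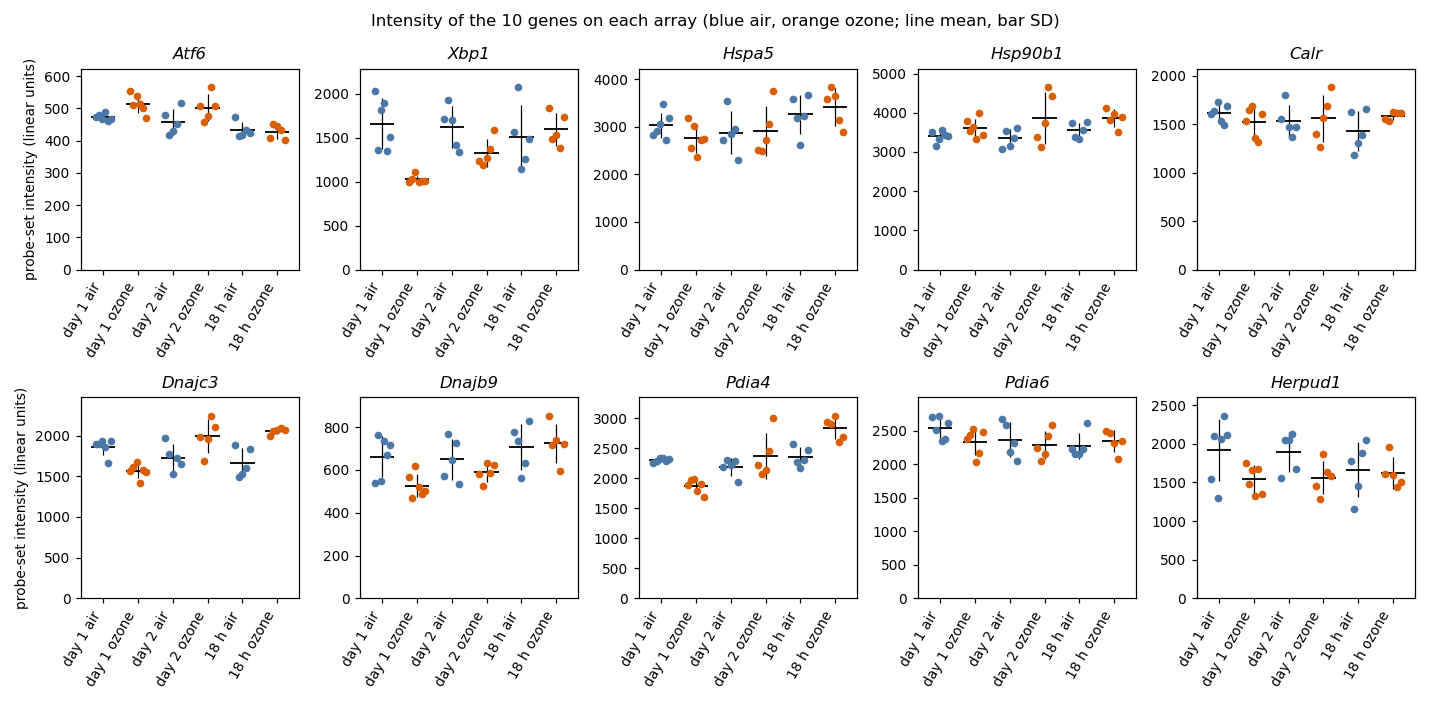
Each panel shows the intensity (y axis, linear units) of 1 of the 10 genes on each of the 32 arrays, by group along the x axis. Blue points are air arrays, orange points are ozone arrays, horizontal lines are group means and vertical bars are SD. On day 1 all ozone points of Xbp1 and Pdia4 lie below all air points, and at 18 h all ozone points of Dnajc3 and Pdia4 lie above all air points. Of all genes tested, 16% did not overlap on day 1 and 2.76% at 18 h.

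The transcription factors come first. Xbp1 read 1353 to 2032 with a median of 1663 on the 6 air arrays of day 1, and 998 to 1109 with a median of 1006 on the 6 ozone arrays. The groups did not overlap, as was the case for 16% of all genes tested, and the ozone arrays lay closer together (log2 level 10.02 ± 0.06, SD) than the air arrays (10.69 ± 0.25). The difference was -0.67 ± 0.12 (SE, n = 6 and 6, adjusted p = 4.4e-05), and it kept its direction and its call in every fit that left out an array. Atf6, the sensor, read 461 to 490.1 with a median of 469 after air and 470.5 to 553 with a median of 511 after ozone, and the groups overlapped. Its difference was 0.12 ± 0.05 (adjusted p = 0.079), which passed the test after quantile normalization (0.13, adjusted p = 0.047), in a fit of these groups alone (adjusted p = 0.047) and without ozone replicate 6 (0.14, adjusted p = 0.039). A second, dimmer Atf6 probe set with a mean of 204 units gave 0.03 ± 0.04 (adjusted p = 0.60).

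The chaperones of the ER lumen lay near the air level on day 1. Hspa5 read 2724 to 3469 with a median of 2983 after air and 2356 to 3191 with a median of 2728 after ozone, with the ozone range reaching lower and overlapping the air range. Its difference was -0.14 ± 0.10 with a 95% interval of -0.34 to 0.07 (adjusted p = 0.35). For Hsp90b1 the interval was -0.05 to 0.23 around 0.09 ± 0.07 (adjusted p = 0.38), and for the lectin Calr it was -0.26 to 0.09 around -0.08 ± 0.08 (adjusted p = 0.49). All of these intervals include 0 and all leave out a change as large as that of Xbp1. Of the 5 genes whose windows hold the ER stress response element, Xbp1 and Dnajc3 fell on day 1, and Hspa5, Hsp90b1 and Calr did not pass. The part of the element in these differences was not tested.

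The cochaperones fell. Dnajc3 read 1668 to 1932 with a median of 1895 after air and 1416 to 1674 with a median of 1574 after ozone. The groups touched only through air replicate 5, whose 1668 units lay below the highest ozone array. The difference was -0.25 ± 0.06 (adjusted p = 0.0032). Dnajb9 read 540.0 to 764 with a median of 692 after air and 469.8 to 617 with a median of 510.2 after ozone, with 2 air arrays, replicates 1 and 3, inside the ozone range. Its difference was -0.31 ± 0.10 (adjusted p = 0.018), and without air replicate 2, the array with the lowest nonspecific signal (54.3 against 66.1 to 92.0 units elsewhere), the adjusted p was 0.052.

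Of the disulfide isomerases, Pdia4 read 2252 to 2339 with a median of 2299 on the air arrays, a narrow range, and 1694 to 1982 with a median of 1897 on the ozone arrays. The groups did not overlap, as for 16% of all genes tested, and the difference was -0.30 ± 0.06 (adjusted p = 0.00064). Pdia6 overlapped between groups and differed by -0.13 ± 0.07 (adjusted p = 0.18, 95% interval -0.27 to 0.01). The degradation gene Herpud1 read 1302 to 2361 after air and 1326 to 1756 after ozone. Its air arrays spread widely, with replicate 3 the lowest of all 12 arrays of that day. Its difference of -0.29 ± 0.13 missed the threshold (adjusted p = 0.10), and without air replicate 3 it was -0.39 (adjusted p = 0.018).

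Of 39 tested markers of 7 other kinds of cell, 8 were lower on day 1 and 0 higher (20.5%). Of all genes tested, 16.4% were lower and 13.1% higher (29.5% in either direction). Plasma cells, which secrete antibodies, are rich in these chaperones, and 5 of 8 of their markers were on the array, with a sum of 1209 to 1315 units after air and 1187 to 1394 after ozone. Of these 5, Jchain was lower after ozone (-0.28 ± 0.08, adjusted p = 0.013), and the other 4 were slightly above 0 (0.05 each) and did not pass. Jchain, Mzb1, Tnfrsf17 and Prdm1 had means of 141 to 173 units over all arrays, near the array medians of 147 to 161. Sdc1, a gene that hepatocytes also express, had a mean of 697 and was the largest part of the sum. Of pancreatic acinar markers 9 of 10 were on the array, with a sum of 2588 to 2893 after air and 2389 to 2583 after ozone, and Cela1 was lower (-0.25 ± 0.08, adjusted p = 0.019). The 8 Kupffer cell and macrophage markers summed to 4987 to 5888 after air and 4307 to 6746 after ozone. Markers of macrophages (Adgre1), monocytes (Ly6c), endothelium (Tek and Stab2), stellate cells (Lrat) and cholangiocytes (Epcam) were also lower, by log2 differences of -0.17 to -0.39. No marker of these lists was at 0, since array intensities hold background signal. Their part in the results was not tested.

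At the end of day 2, after a second exposure, none of the 10 genes passed the limma test, and 4 of them had an unadjusted p under 0.05 (Atf6, Hsp90b1 and Dnajc3 higher, Xbp1 lower). Of all genes tested 0.705% passed, and 13% had an unadjusted p under 0.05. The median difference over the 10 genes was 0.015. Xbp1 read 1712, 1931, 1697, 1420.3 and 1337 on air replicates 1 to 5 and 1229, 1187, 1270.2, 1371 and 1583 on ozone replicates 1 to 5. Ozone replicate 5 was the highest of its group and air replicate 5 the lowest of its group, so that the ranges overlapped. The difference was -0.28 ± 0.13 (n = 5 and 5, adjusted p = 0.33), and without the 3 arrays that lay apart it was -0.41 ± 0.14 (adjusted p = 0.046). Without the 4 arrays Atf6 passed as well (0.17 ± 0.06, adjusted p = 0.048). Of all genes tested, 13.2% passed without the 3 arrays and 13.6% without the 4.

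The cochaperone Dnajc3 read 1972, 1769, 1532, 1719 and 1650.1 after air and 1985, 1682, 1956, 2243 and 2110.0 after ozone on day 2. The ranges overlapped through air replicate 1 and ozone replicate 2, with a difference of 0.20 ± 0.07 (adjusted p = 0.14), and of 0.17 ± 0.08 without the 3 arrays (adjusted p = 0.18). Pdia4 read 2188, 2309, 2227, 2289 and 1945 after air and 2217, 2076, 2132, 2449 and 3005 after ozone. Ozone replicate 5 stood far above the others, and without the 3 arrays the difference of 0.10 ± 0.07 became -0.02 ± 0.06 (adjusted p = 0.89). Hsp90b1 read 3083, 3525, 3145, 3348 and 3622 after air and 3382, 3134, 3739, 4660.0 and 4415 after ozone, with ozone replicates 4 and 5 above all others (0.19 ± 0.08, adjusted p = 0.21, and 0.17 ± 0.08 without the 3 arrays).

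For the BiP gene Hspa5 the values on day 2 were 2714, 3544, 2856, 2949.5 and 2308 after air and 2520.0, 2489.8, 2720.0, 3052 and 3755 after ozone. The groups covered nearly the same range, and the difference was 0.01 ± 0.11, with a 95% interval of -0.21 to 0.24. Without the 3 arrays it was -0.16 ± 0.10 (adjusted p = 0.40). Of the rest, Herpud1 differed by -0.27 ± 0.14, Dnajb9 by -0.13 ± 0.11, Pdia6 by -0.04 ± 0.08 and Calr by 0.02 ± 0.09. None of these 4 passed, with adjusted p from 0.44 to 0.99.

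At 18 h after the second exposure, Dnajc3 was 1.23-fold higher after ozone, and it was the only one of the 10 genes past the threshold. The background was 1.17% of the genes tested, and 0.86% for higher genes. Dnajc3 read 1887, 1496, 1529.9, 1599 and 1830.4 on the air arrays and 1990.3, 2050.0, 2074, 2094 and 2065 on the ozone arrays. The 5 ozone arrays lay close together and above every air array (log2 level 11.02 ± 0.03 against 10.71 ± 0.15, SD). The difference was 0.30 ± 0.07 (n = 5 and 5, adjusted p = 0.025), and it was 0.34 ± 0.07 without the 3 arrays that lay apart (adjusted p = 0.012) and 0.41 ± 0.07 without the 4 (adjusted p = 0.00067). The call was lost in 6 of the 10 fits that left out 1 array of this comparison (adjusted p 0.054 to 0.096) and in a fit of these 2 groups alone (adjusted p = 0.094).

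Pdia4 also did not overlap between the groups at 18 h, as was the case for 2.76% of all genes tested. It read 2572, 2279.7, 2164, 2312 and 2479 after air and 2944, 2898, 3042, 2607 and 2687 after ozone. The lowest ozone array, replicate 4, lay just above the highest air array, replicate 1, which itself resembled the ozone group across genes. The difference of 0.26 ± 0.07 missed the threshold (adjusted p = 0.058), and without 18 h air replicate 1 alone the adjusted p was 0.021. It passed without the 3 arrays (0.28 ± 0.05, adjusted p = 0.0059) and without the 4 (0.33 ± 0.05, adjusted p = 0.00043). Of all genes tested, 2.05% and 4.95% passed in these fits. The median difference over the 10 genes was 0.088 at this time. Xbp1 was spread widely after air (1561, 2077, 1141, 1261 and 1479.6) and less so after ozone (1832, 1485, 1532, 1379 and 1736), with overlap and a difference of 0.11 ± 0.13 (adjusted p = 0.84).

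None of the remaining genes passed at 18 h. The chaperone Hspa5 read 2626 to 3676 after air and 2884 to 3839 after ozone (0.07 ± 0.11, 95% interval -0.16 to 0.30). Calr differed by 0.16 ± 0.09 and Hsp90b1 by 0.12 ± 0.08, the largest differences among the genes that neither passed nor separated the groups. Herpud1, Atf6, Pdia6 and Dnajb9 lay between -0.02 and 0.04, with adjusted p of 0.90 to 0.98, and the widest of their 95% intervals, that of Herpud1, ran from -0.31 to 0.28. Plasma cell markers summed to 1092 to 1451 units after air and 1441 to 1562 after ozone at this time, with Sdc1 higher after ozone (0.52 ± 0.10, adjusted p = 0.0096). Sdc1 encodes syndecan 1, which hepatocytes also make. Pancreatic acinar markers summed to 2214 to 2644 after air and 2095 to 2311 after ozone, with Cela1 lower (-0.41 ± 0.09, adjusted p = 0.017). The endothelial marker Stab2 was higher (0.28 ± 0.07, adjusted p = 0.033). Of 8 Kupffer cell and macrophage markers none passed, 7 were below 0 (median -0.22) and 3 of them had an unadjusted p under 0.05, and their sums were 4962 to 5796 after air and 4132 to 5097 after ozone. In all, 3 of the 39 markers of other cells passed (7.69%, against 1.17% of all genes tested). Their part in the result was not tested.

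**Figure D3:**
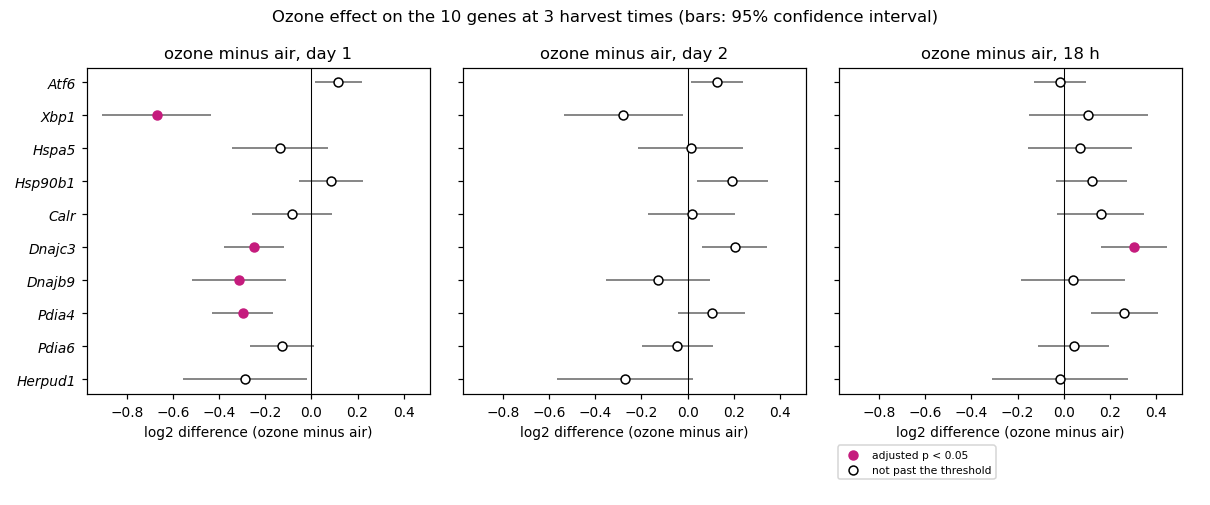
Points are differences of ozone minus air on the log2 scale (x axis) for the 10 genes (y axis) at each of the 3 harvest times, and bars are 95% confidence intervals from limma. Filled points passed an adjusted p of 0.05. The 4 filled points of day 1 lie below 0, between -0.67 for Xbp1 and -0.25 for Dnajc3, day 2 has none, and the single filled point at 18 h is Dnajc3 at 0.30.

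Whether the ozone effect itself differed between harvest times was tested as a difference of differences. Between day 1 and day 2 it differed for 2 of the 10 genes, Dnajc3 and Pdia4, against 5.09% of all genes tested (3.13% with a higher effect on day 2). For Dnajc3 the effect rose by 0.45 ± 0.09 (adjusted p = 0.0061), from -0.25 ± 0.06 on day 1 to 0.20 ± 0.07 on day 2. For Pdia4 it rose by 0.40 ± 0.10 (adjusted p = 0.013), from -0.30 ± 0.06 to 0.10 ± 0.07. Without the 3 arrays that lay apart, both remained past the threshold, at 0.41 ± 0.10 (adjusted p = 0.022) for Dnajc3 and 0.27 ± 0.07 (adjusted p = 0.044) for Pdia4. Of the 10 genes, Xbp1 had the largest effect on day 1, but its difference between the days, 0.39 ± 0.17, did not pass (adjusted p = 0.19). From day 2 to 18 h no effect on the 10 genes differed by the limma test with all arrays, with 1 of them at an unadjusted p under 0.05, and 0.0086% of all genes passed. This result depended on the arrays that lay apart. Without the 3 or the 4 arrays, 1 of the 10 genes passed, with a higher effect at 18 h. In the same fits 999 and 1133 of the 11626 genes tested passed.

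Each exposure was also followed over harvest times. The air groups gave no change in the 10 genes by limma, neither from day 1 to day 2 (0.0086% of all genes tested passed) nor from day 2 to 18 h (0.12% passed), and 0 of the 10 had an unadjusted p under 0.05 in either step. The ozone groups changed. From day 1 to day 2, Xbp1, Dnajc3 and Pdia4 rose, 3 of 10 against 14.5% of all genes tested (8.47% higher). The rises were 0.36 ± 0.12 for Xbp1 (adjusted p = 0.04), 0.34 ± 0.07 for Dnajc3 (adjusted p = 0.00078) and 0.33 ± 0.07 for Pdia4 (adjusted p = 0.0012). None of the 3 overlapped between the days, as was the case for 7.81% of all genes tested. These comparisons share the ozone arrays of day 1 with the comparison against air, so the low levels of day 1 enter both. The call of Xbp1 was lost in 9 of the 11 fits that left out 1 array, and the rise was 0.30 ± 0.12 without the 3 arrays that lay apart (adjusted p = 0.13).

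From day 2 to 18 h after ozone, Pdia4 rose further and the sensor Atf6 fell, 2 of 10 against 11.3% of all genes tested (7.1% higher and 4.16% lower). Pdia4 was higher by 0.26 ± 0.07 (adjusted p = 0.014), which was lost without day 2 ozone replicate 2 (adjusted p = 0.054) or without replicate 3 (adjusted p = 0.059). Atf6 read 506, 456, 476, 567 and 508 on day 2 and 408, 453, 444, 433 and 402 at 18 h, with every 18 h array below every day 2 array. The fall was -0.22 ± 0.06 (adjusted p = 0.0088), and groups without overlap were found for 6.29% of all genes tested. The dimmer Atf6 probe set gave -0.08 ± 0.05 (adjusted p = 0.28) in the same comparison. Hspa5 and Dnajb9 differed by 0.24 ± 0.11 and 0.29 ± 0.11 and did not pass with all arrays (adjusted p = 0.17 and 0.09), but both passed without the 3 arrays that lay apart. In that fit 2256 of the 11626 genes tested passed, against 1310 with all arrays. Harvest time and hour of the day cannot be told apart in these steps.

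**Figure D4:**
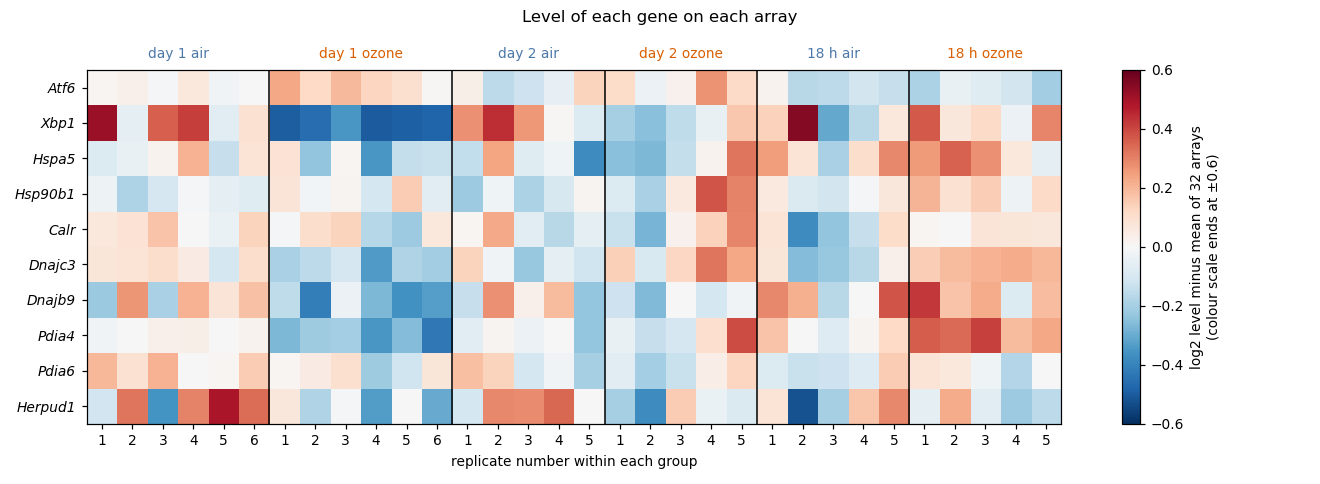
Colours show the log2 level of each of the 10 genes (rows) on each of the 32 arrays (columns, by group and replicate) minus the mean of all 32 arrays, red above and blue below, with the scale ending at 0.6 on either side. The Xbp1 row is blue on all 6 ozone arrays of day 1, the Dnajc3 and Pdia4 rows turn from blue on day 1 ozone to red on 18 h ozone, and day 2 ozone replicate 5 is red in most rows.

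A list of 70 other genes of the pathway, grouped by role, was set beside the 10, and 63 of them were tested. On day 1, 7 were higher after ozone and 10 were lower, which is 17 of 63 against the 29.5% of all genes, with a median difference of -0.04. The 4 with the smallest p were Sec24d, Edem1 and Selenos, which rose, and Pdia5, which fell. Edem1, which directs misfolded glycoproteins to degradation, rose 2.69-fold (1.43 ± 0.21, adjusted p = 5e-06). Sec24d, a subunit of the vesicle coat that carries protein out of the ER, rose by 0.51 ± 0.06 (adjusted p = 2.6e-07), and Selenos, a selenoprotein of ER-associated degradation, rose by 0.42 ± 0.07 (adjusted p = 1.1e-05). The disulfide isomerase Pdia5 fell (log2 difference -0.68 ± 0.11, adjusted p = 1.2e-05), by a size close to that of Xbp1.

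By role, the 12 tested chaperones and cochaperones of this list gave 1 higher (Dnajc10) and 1 lower (Cnpy2), and the 8 genes of oxidative folding gave 1 lower, Pdia5. All 3 calls among the 12 genes of translocation and signal sequences were lower, those of Spcs1, Spcs2 and Sec61b. Of 11 genes of ER-associated degradation, 2 were higher and 3 lower (Derl1, Vcp and Herpud2). Glycoprotein quality control gave 2 higher of 6, Lman1 and Prkcsh, and the vesicle coat group gave 2 higher and 1 lower of 7. Each group holds few genes, and of all genes tested 13.1% were higher and 16.4% lower that day. Among 7 sensors and transcription factors 1 passed, the sensor kinase gene Eif2ak3 (PERK), which was lower (-0.27 ± 0.08, adjusted p = 0.0074). Atf4 (0.01 ± 0.09, adjusted p = 0.96) and Ddit3, which encodes CHOP (-0.21 ± 0.09, adjusted p = 0.093), did not pass. These names after the first 4 were added after their values were seen.

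On day 2 and at 18 h none of the 63 genes passed by limma, with 10 (15.9%) and 12 (19.0%) at an unadjusted p under 0.05, against 13% and 12.1% of all genes tested. Edem1, named here after its values were seen, was at 0.81 ± 0.23 on day 2 (adjusted p = 0.073) and at -0.29 ± 0.23 at 18 h. Without the 3 arrays that lay apart, 4 were higher and 3 lower on day 2 (11.1%, against 13.2% of all genes in the same fit), and 2 were higher at 18 h (3.17%, against 2.05%). Without the 4 arrays the count at 18 h was 9 higher and 0 lower (14.3%, against 4.95% of all genes, of which 432 were higher and 144 lower). The ozone effect differed between day 1 and day 2 for 2 of the 63, against 5.09% of all genes tested, higher on day 2 for Pdia5 (0.66 ± 0.16, adjusted p = 0.012) and lower for Sec24d (-0.34 ± 0.09, adjusted p = 0.022).

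**Figure D5:**
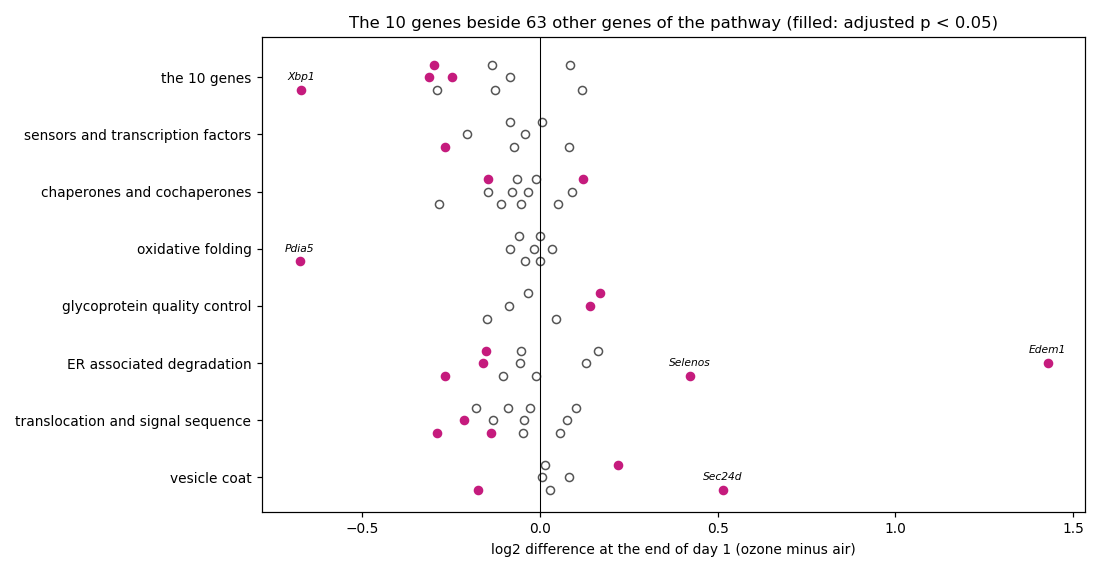
Each point is 1 gene, placed by its difference of ozone minus air at the end of day 1 on the log2 scale (x axis), for the 10 genes in the top line and for the 63 other tested genes of the pathway by role below (y axis; the height within a line only separates points). Filled points passed an adjusted p of 0.05. Filled points of the 10 genes lie on the lower side only, as do those of the sensor, oxidative folding and translocation groups. The degradation, chaperone and vesicle coat groups hold filled points on both sides, and glycoprotein quality control on the higher side only. Edem1 lies the farthest at 1.43.

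The 22 windows with the ER stress response element belonged to 21 genes, of which 16 were tested. On day 1, 2 of the 5 among the 10 genes were lower (Xbp1 and Dnajc3), and of the 11 others 1 was higher and 1 lower, 4 of 16 in all against 29.5% of all genes tested. The higher one was Ankmy2 (0.26 ± 0.04) and the lower one Zfp57 (-0.12 ± 0.03), both named after their values were seen. Canx, the membrane-bound relative of calreticulin, was at -0.01 ± 0.05 and Creld2, an ER-stress-induced secreted protein, at -0.28 ± 0.11 (adjusted p = 0.055). At the later times 1 of the 16 passed, Dnajc3 at 18 h. Pdia4 and Dnajb9, which also fell on day 1, were the genes whose windows held neither the element nor element II. Whether the element has a part in any of these differences was not tested.

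Within groups, most of the 10 genes varied with Hspa5 from array to array on the deposited scale, and fewer did after quantile normalization. Levels were taken as deviations from the group means over the 32 arrays, and each gene was correlated with Hspa5, the usual marker of the response, with two-sided permutation p-values adjusted over the 9 relations. Of the 9, 8 passed for both Pearson's r and Spearman's rho, and 4 passed for r after quantile normalization. The share of all genes tested that would pass with Hspa5 was not computed. The counts are therefore not shown to be particular to the 10 genes. Pdia4 was closest to Hspa5, with r = 0.79 and rho = 0.78 (adjusted p = 0.00018 and 0.00027), and r = 0.74 without the 2 arrays farthest from the Hspa5 median. Dnajb9 followed with r = 0.64 and rho = 0.66 (adjusted p = 0.00054 and 0.00067), and r = 0.63 without those arrays, day 2 ozone replicate 5 and day 2 air replicate 2.

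Calr and Pdia6 both had r = 0.59 with Hspa5 (rho = 0.51 and 0.54), which became 0.44 and 0.50 without the 2 arrays. Hsp90b1 had r = 0.55, Dnajc3 0.49, Xbp1 0.47 and Herpud1 0.44 (rho 0.54, 0.46, 0.45 and 0.47). Without the 2 arrays these r were 0.46, 0.48, 0.35 and 0.47. The adjusted p of r was 0.0133, 0.0235, 0.0171 and 0.0197 in the same order, and these 4 no longer passed after quantile normalization (adjusted p = 0.094, 0.11, 0.088 and 0.083). Atf6 was the exception, with r = 0.15 and rho = 0.26 (adjusted p = 0.50 and 0.22). Over all 45 pairs of the 10 genes the median r was 0.42, from -0.32 for Xbp1 with Herpud1 to 0.79, with 14 pairs above 0.5 and 3 below 0. All points share the scaling of their array, and no matching share over pairs of other genes was computed.

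Outside the 10, the genes whose levels over the 32 arrays were most like the mean of the 10 were Spcs2 (Pearson r = 0.90), Rpn1 (0.89), Tmem258 (0.85), Slc39a7 (0.85) and Ostc (0.84). This likeness includes the differences between groups and is a description only. Spcs2 encodes a subunit of the signal peptidase, and Rpn1, Tmem258 and Ostc encode subunits of the oligosaccharyltransferase, which adds sugars to proteins entering the ER. Slc39a7 encodes a zinc transporter of the ER and Golgi membranes. Of these 5, Spcs2 is also in the list of other pathway genes.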

How the data were processed

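Total RNA of rat liver was measured on 32 arrays. The deposited values are linear probe-set intensities. The submitters' processing notes name PLIER, a summary of probes, and Affymetrix Expression Console, without versions. For background correction and scaling, the steps were not given in the sources used here. Background signal remains in the values (nonspecific probes had array medians of 54.3 to 92.0 units), so fold changes of dim genes are understated. Of 31139 probe sets, 97 controls, 11407 without a gene and 572 with several genes were left out. Probe sets with a mean log2 level below the 25th percentile were dropped and the brightest stood for its gene.

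Values were analysed as log2(intensity + 16) in R 4.3.3 with limma 3.58.1 (lmFit, eBayes with trend), 1 mean per title group over all 32 arrays and 9 contrasts. P-values are two-sided with Benjamini-Hochberg adjustment. Correlation p-values came from 100000 shuffles within groups. Of these steps, only the limma contrast of ozone with air on day 1 was tested on simulated data. Figures and motif searches used Python 3.11.15. The members and lists were chosen with earlier results of these data known. All 10 members are named, and of other pathway genes up to 4 past the threshold with the smallest p per comparison of ozone with air, which only day 1 gave. Alternatives were the offset, filter, normalization, probe set, groups in the fit, a replicate block and left-out arrays.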

Additional observations from a re-analysis of the deposited data

Results flagged for a closer look

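Single arrays stood away from the rest of their group, by the gap to the nearest array relative to the range, in 4 of 60 tests of a gene within a group, where chance gives about 1 in 20. On day 1, ozone replicate 3 was the highest for Xbp1 at 1109 units (nearest 1028), and air replicate 5 was the lowest for Dnajc3 at 1668 (nearest 1859). At 18 h, air replicate 5 was the highest for Pdia6 at 2619 (nearest 2231) and air replicate 1 the highest for Atf6 at 474.4 (nearest 432). The ozone effect differed between day 2 and day 1 by limma's test of that difference for Dnajc3, by 0.45 on the log2 scale, and for Pdia4, by 0.40.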

How the results depend on the processing

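The 4 lower genes of day 1 kept their direction in all alternatives run, and their calls in all but the fit without day 1 air replicate 2, where Dnajb9 was lost. Of 549 differences of the 10 genes under alternatives other than leaving out arrays, 542 kept their call status, and among these 7 changed sign while past the threshold in neither fit. The other 7 changed call. Atf6 on day 1 gained it with quantile normalization and in its groups alone, as did Dnajb9 for ozone at 18 h against day 2 in its groups alone (adjusted p = 0.048). In their groups alone, Dnajc3 at 18 h and Pdia4 for ozone at 18 h against day 2 lost it (adjusted p = 0.094 and 0.087). For that last comparison Atf6 lost it with its dimmer probe set, and Xbp1 for ozone on day 2 against day 1 lost it with the replicate block. Counts of all genes moved more, which the number of arrays limits. For ozone against air on day 2, 82 genes became 22 without the filter, 137 with quantile normalization, 1 in a fit of these groups alone, and 1533 or 1576 without the 3 or 4 arrays that lay apart. At 18 h, 136 became 1, 238 and 576 in the last 3 of these. The share of higher genes moved under quantile normalization from 65.9% to 54.0% on day 2 and from 73.5% to 56.0% at 18 h. The difference of effects between day 1 and day 2 went from 592 to 262 and 312 without the 3 or 4 arrays, and that between day 2 and 18 h from 1 to 999 and 1133, and to 0 in the fit of its groups alone. Air on day 2 against day 1 gave 1 gene, 3 with every probe set tested, 0 in the fit of its groups alone, and 2 and 3 without the arrays. Air at 18 h against day 2 gave 14, and 8, 39, 22 and 0 without the filter, with quantile normalization, with every probe set and in the groups alone, and 331 and 306 without the arrays. Ozone at 18 h against day 2 went from 1310 to 2256 and 2299. The cause was not tested.

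Of the 10 genes, the count at 18 h was 1, 0 in the fit of its groups alone and 2 without the 3 or 4 arrays, on day 2 it was 0, then 1 and 2 without them, for the difference between day 2 and 18 h 0, then 1 in both, and for ozone at 18 h against day 2 it was 2, then 4 in both. Of the 11626 genes tested, 238 and 576 passed at 18 h without the 3 or 4 arrays, and 1533 and 1576 on day 2. For the difference 999 and 1133 passed, and for ozone at 18 h against day 2 it was 2256 and 2299. Correlations with Hspa5 past the threshold went from 8 to 4 with quantile normalization. Leaving out 1 array at a time gave 3087 to 3499 genes on day 1, 1 to 978 on day 2 and 32 to 411 at 18 h, 295 to 892 and 0 to 216 for the differences of effects, 0 to 5 and 0 to 83 for air, and 1048 to 1724 and 645 to 1978 for ozone. The 10 genes gave 3 to 5, 0 to 1 and 0 to 2 calls at the 3 times, and 1 to 3 for ozone at 18 h against day 2.

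Same-numbered arrays did not deviate together on day 1 (correlations of -0.40 to 0.02) or day 2 (-0.58 to -0.02). At 18 h the correlations ran from -0.33 to 0.26, with 2 of 5 pairs above 0.1. There, 2 of the 5 air arrays were closest to the ozone array of their own number. Whether same-numbered arrays share more than a number at 18 h is not settled by these values. With the replicate number as a block, 3235 genes passed on day 1, 6 on day 2 and 91 at 18 h, 460 and 0 for the differences of effects, 2 and 5 for air, and 1399 and 1107 for ozone. Under the block the rise of Xbp1 from day 1 to day 2 after ozone was 0.35 (adjusted p = 0.079), and the other calls of the 10 genes were kept.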
